A study of Rattus norvegicus with 4 samples.

Results

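Neural RNA splicing and Elavl regulators were followed through 10 genes, namely A2bp1, Srrm4, Nova1, Nova2, Ptbp1, Ptbp2 and Elavl1 to Elavl4, of the 25810 genes in the count tables. All 10 were found. A2bp1, the rat symbol for Rbfox1, was chosen by its high counts in hrPC12 against wtPC12, and Srrm4 because its protein acts on the splicing of the Rest transcript. The other members complete the families of neural splicing factors and of Elavl RNA-binding proteins.

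The RNA came from PC12, a rat pheochromocytoma line with neuron-like properties. A pair of its clones was compared by RNA-Seq, without any treatment. The clone wtPC12, labelled as wild type PC12 cells, is low in REST by the authors' description. The clone hrPC12, labelled as high REST PC12 cells and formerly called PC12-27, arose spontaneously. Each clone gave 2 libraries, and 20975027 to 27246502 reads per library fell on genes. Since each REST level stands for 1 clone, the effect of REST cannot be told apart from whatever else distinguishes the clones. The sources used here do not say whether the libraries of a clone came from separate cultures, and all p-values therefore measure only the spread between these libraries, which may be technical.

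REST is a repressor that binds a DNA element called RE1 and keeps many neural genes silent in nonneural cells. Neural splicing factors of the Rbfox, Nova, Srrm4 and Ptbp families choose exons in neural transcripts, and Srrm4 also promotes a splicing event that gives a truncated REST protein, while Srrm4 is itself a known REST target. Elavl proteins bind AU-rich and U-rich stretches of mRNAs and affect their stability, splicing and translation. Elavl1, or HuR, is made in nearly all cells, and Elavl2, Elavl3 and Elavl4 are mainly neuronal. Counts per gene show neither exon choice nor the truncated Rest transcript.

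Rest itself had 43.0 and 132 normalized counts in the wtPC12 libraries (replicates 1 and 2, the order used throughout) and 964 and 915 in those of hrPC12. Normalized counts are reads scaled by edgeR's TMM factors to the mean library. Both hrPC12 libraries stood above both of wtPC12, with a log2 fold change (FC) of 3.42 ± 0.57 (SE, n = 2 per clone) and an adjusted p of 0.0115 by the quasi-likelihood test of edgeR, adjusted after Benjamini-Hochberg over all tested genes. The wtPC12 libraries differed by 3.06-fold, and leaving out replicate 1 or replicate 2 of wtPC12 gave a log2 FC of 2.80 or 4.44.

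Apart from A2bp1, 8 members could be tested. All were chosen with earlier results of these data known, so their calls are not free of that choice. Of the 8, Elavl1 and Elavl2 rose in hrPC12, Nova2 and Elavl3 fell, and 4 did not pass an adjusted p of 0.05. Among all 13726 tested genes, 32.4% passed that threshold, 16.1% higher and 16.3% lower. Elavl3 was the 1 member of the 8 past the study's stricter pair of thresholds, which asks for a log2 FC past 2 as well as an adjusted p under 0.01. Those thresholds were passed by 10.3% of the tested genes, 4.84% higher and 5.46% lower. The libraries of the clones did not overlap for 5 of the 8, with 2 higher and 3 lower in hrPC12, beside 73.5% of the tested genes, 37.9% higher and 35.6% lower. With 2 libraries per clone, an exact permutation test of a single gene cannot go below 0.333.

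**Figure D1:**
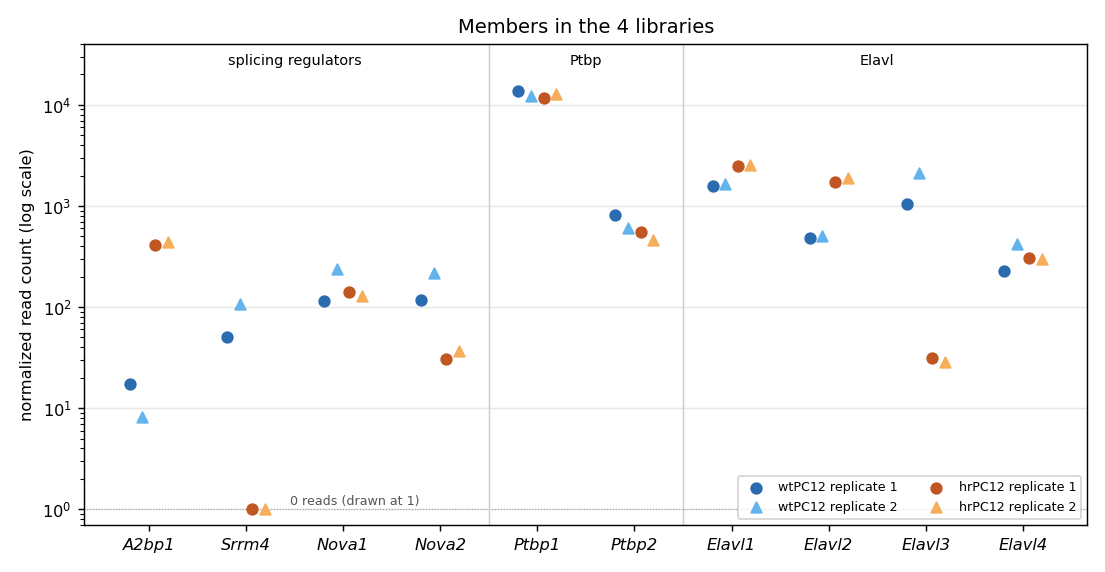
Normalized counts of each of the 10 members on a log axis, with 1 point per library of wtPC12 and hrPC12. Elavl3 falls from 1049 and 2104 to 31.3 and 28.3, Elavl2 rises from 486 and 499.6 to 1707 and 1889, and Ptbp1 and Elavl4 overlap between the clones.

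Rbfox1 is a splicing factor that binds UGCAUG motifs beside exons, and it is known from brain, heart and skeletal muscle. A2bp1 had 17.4 and 8.24 normalized counts in wtPC12, from 15 and 8 reads, and 406 and 443 in hrPC12, from 480 and 438 reads. Both hrPC12 libraries were far above both of wtPC12, at 425 ± 26.1 against 12.8 ± 6.51 (SD, n = 2 per clone), or 33.1-fold. This difference chose the gene and is given as a description without a test. Few reads stood on the wtPC12 side. The log2 FC of 5.05 became 5.64 when wtPC12 replicate 1 was left out and 4.60 when replicate 2 was, and the cause of this shift was not tested.

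Of the Rbfox paralogs, which share the RNA motif, Hrnbp3 (Rbfox3), the gene of the neuronal marker NeuN, went the opposite way. It had 251 and 151 normalized counts in wtPC12 and 3.39 and 2.02 in hrPC12, a log2 FC of -6.13 ± 0.55 (SE) with an adjusted p of 0.00188 by edgeR's quasi-likelihood test. The hrPC12 libraries were at 4 and 2 reads, about the floor of 3 reads used here for a gene at 0. Rbm9 (Rbfox2), the more broadly expressed paralog, had 594 and 1552 in wtPC12 and 1134 in both hrPC12 libraries, which lay between those of wtPC12. Its log2 FC of 0.08 had a 95% interval of -1.10 to 1.26, with an adjusted p of 0.903 by edgeR's test. Either wtPC12 library decided its direction: it was -0.48 without replicate 1, and without replicate 2 it was 0.93 and passed the threshold with an adjusted p of 0.0332.

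Srrm4, which promotes the inclusion of neural microexons, had 50.0 and 108 normalized counts in wtPC12, from 43 and 105 reads, and 0 reads in both hrPC12 libraries. The hrPC12 libraries thus lay below both of wtPC12, and a count of 0 in them still allows up to 2.54 and 3.04 normalized counts. Against that floor of 3 reads per library Srrm4 was at least 28.4-fold lower, and the bound was 17.9 without wtPC12 replicate 2 and 38.8 without replicate 1. The filter of the study asks for reads in both clones, so Srrm4 was not tested in the comparison described above. When every gene with at least 1 read was tested, 18416 in all, its adjusted p was 0.000676 with edgeR's quasi-likelihood test, and it was 0.00805 with edgeR's own filter on low counts. Its paralog Srrm3 was looked for but was not found under that name in the count tables.

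The sequence before the start of Srrm4 is shown because this is the member without any read in hrPC12. It covers the 250 bases before the RefSeq start on the plus strand, chr12:45659479-45659728 in GRCr8, a later build than the one behind the counts. The letters of the left and the right part of RE1, TTCAGCACC and GGACAGC, were searched on both strands without allowing any mismatch. Neither was in this window, which says nothing of sites elsewhere or of sites with other letters.
Srrm4: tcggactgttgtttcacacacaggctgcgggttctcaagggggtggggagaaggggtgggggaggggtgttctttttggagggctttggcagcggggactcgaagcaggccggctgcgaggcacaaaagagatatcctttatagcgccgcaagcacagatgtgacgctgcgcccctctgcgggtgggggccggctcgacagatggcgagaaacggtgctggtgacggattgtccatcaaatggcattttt

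Nova1 and Nova2 bind clusters of short motifs in neuronal pre-mRNAs, and only Nova2 of the pair fell. Nova2 had 119 and 217 normalized counts in wtPC12 and 30.5 and 36.4 in hrPC12. All hrPC12 values lay below those of wtPC12, although the 2 wtPC12 libraries differed by 1.83-fold. The log2 FC was -2.33 ± 0.44 (SE), or 5.02-fold lower, with an adjusted p of 0.0170 by edgeR's quasi-likelihood test. Leaving out a library gave values from -2.73 to -1.83, and the call was kept in all 10 alternative settings that change the test.

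Nova1 had 115 and 238 normalized counts in wtPC12 and 142 and 129.5 in hrPC12, so the hrPC12 libraries lay within the range of wtPC12. Its log2 FC of -0.38 had a 95% interval of -1.47 to 0.71 and an adjusted p of 0.518 with edgeR, and it turned to 0.24 without wtPC12 replicate 2. A difference of more than 2-fold in the downward direction thus lies within the interval. Read against Nova1 in the same library, Nova2 had a log2 ratio of 0.04 and -0.13 in wtPC12 and of -2.22 and -1.83 in hrPC12. These ratios are of reads and not per length, so only their change between the clones, -1.98, can be read. For Nova2, a member that fell, the RefSeq window on the plus strand at chr1:87700078-87700327 (GRCr8) also held neither part of RE1 in these exact letters.
Nova2: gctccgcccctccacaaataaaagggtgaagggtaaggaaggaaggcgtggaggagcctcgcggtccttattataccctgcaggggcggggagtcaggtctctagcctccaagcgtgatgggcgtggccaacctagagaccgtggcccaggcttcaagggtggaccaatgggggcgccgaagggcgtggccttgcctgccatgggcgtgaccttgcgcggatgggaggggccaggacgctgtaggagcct

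Ptbp1 represses neural exons in nonneural cells and in neural progenitors, and Ptbp2, its neural paralog, takes its place as neurons form. Ptbp1 had 13597 and 12241 normalized counts in wtPC12 and 11638 and 12775 in hrPC12, which overlapped. Its log2 FC of -0.08 had a 95% interval of -0.53 to 0.37 with an adjusted p of 0.733 by edgeR's test. Ptbp2 had 820.1 and 604 in wtPC12 and 553 and 462 in hrPC12. Both hrPC12 libraries were lower, but the log2 FC of -0.49 had a 95% interval of -1.16 to 0.19 and an adjusted p of 0.207, and it passed the threshold in none of the 10 alternative settings.

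The log2 ratio of Ptbp2 to Ptbp1 reads was -4.05 and -4.34 in wtPC12 and -4.40 and -4.79 in hrPC12, a difference of -0.40 that ran from -0.59 to -0.20 when a library was left out. The gap between hrPC12 replicate 1 and wtPC12 replicate 2 was small beside the spread within each clone, 0.21 and 0.28 (SD of the log2 ratio). Rod1 (Ptbp3), a paralog found mainly in blood cells, had 706 and 1817 normalized counts in wtPC12 and 2731 and 2567 in hrPC12. Its log2 FC of 1.07 had a 95% interval of -0.09 to 2.23 and did not pass the threshold, with an adjusted p of 0.128 by edgeR's test. It passed at 0.0174 with a log2 FC of 1.91 without wtPC12 replicate 2, and at 0.0490 with DESeq2.

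**Figure D2:**
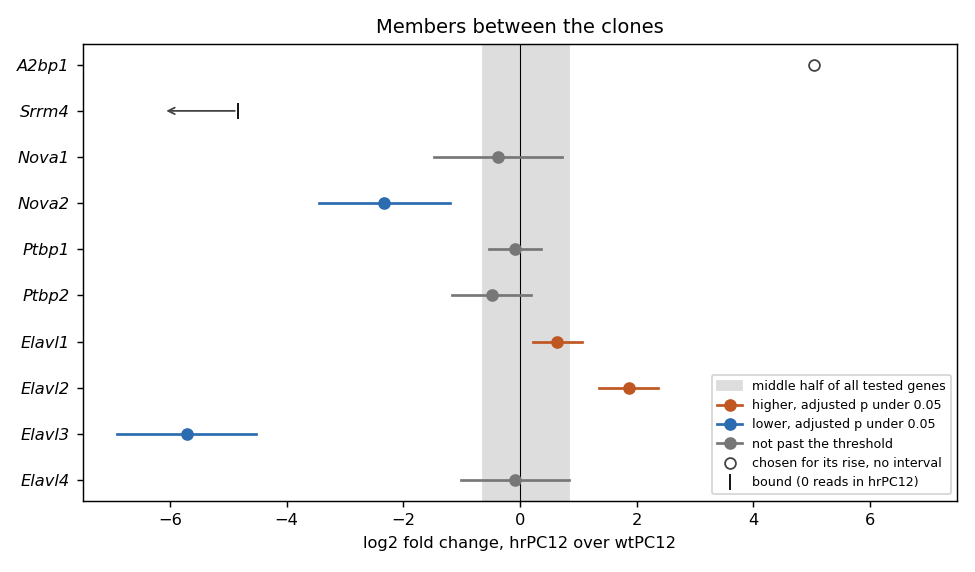
Log2 FC of hrPC12 over wtPC12 for the members with a test, with 95% intervals, over the spread of all tested genes. A2bp1 is drawn without an interval and Srrm4 at its bound. Elavl3 lies at -5.72, Nova2 at -2.33, Elavl1 at 0.64 and Elavl2 at 1.87, and the intervals of Nova1, Ptbp1, Ptbp2 and Elavl4 include 0.

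The 4 Elavl genes did not move together. Elavl3 (HuC), which is made in neurons after they leave the cell cycle, had 1049 and 2104 normalized counts in wtPC12 and 31.3 and 28.3 in hrPC12, from 37 and 28 reads. Both hrPC12 libraries were far below wtPC12, and the 2 wtPC12 libraries differed by 2.01-fold. The log2 FC of -5.72 ± 0.47 (SE) was 52.6-fold, with an adjusted p of 0.00140 by edgeR's quasi-likelihood test. The fall came to -5.13 without wtPC12 replicate 2 and to -6.17 without replicate 1, and the call was kept in all 10 alternative settings.

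Elavl2 (HuB), the other neuronal member that changed, had 486 and 499.6 normalized counts in wtPC12 and 1707 and 1889 in hrPC12. The libraries of each clone stood close to each other and the clones were well apart. The log2 FC was 1.87 ± 0.20 (SE), or 3.65-fold, with an adjusted p of 0.00301 by edgeR's quasi-likelihood test, and it stayed between 1.75 and 1.94 in all 10 alternative settings, each time past the threshold.

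Elavl1 had 1558 and 1662 normalized counts in wtPC12 and 2463 and 2558 in hrPC12. The spread within each clone was small, 73.5 and 67.4 (SD), and the hrPC12 libraries were both higher. The log2 FC of 0.64 ± 0.17 (SE), or 1.56-fold, gave an adjusted p of 0.0397 with edgeR's quasi-likelihood test. This call was lost in 5 of the 10 alternative settings. The adjusted p was 0.0652 with edgeR's RLE factors, 0.0511 with every gene tested, 0.0938 without wtPC12 replicate 1, 0.246 without hrPC12 replicate 1 and 0.256 without hrPC12 replicate 2, while the log2 FC stayed between 0.57 and 0.71.

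Elavl4 (HuD), which binds and stabilizes neuronal mRNAs such as that of Gap43, had 229 and 417 normalized counts in wtPC12 and 307 and 300.5 in hrPC12. The hrPC12 libraries lay between those of wtPC12. The log2 FC of -0.09 had a 95% interval of -1.01 to 0.84 and an adjusted p of 0.860 with edgeR, and it turned to 0.41 without wtPC12 replicate 2. The interval takes in changes of up to about 2-fold downward, so these data do not show that the clones were alike in Elavl4.

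As a share of the reads on the 4 Elavl genes, Elavl3 made up 31.6% and 44.9% in wtPC12 and 0.695% and 0.593% in hrPC12. Elavl2 made up 14.6% and 10.7% in wtPC12 and 37.9% and 39.6% in hrPC12. Elavl1 had 46.9% (exact Clopper-Pearson 95% interval 45.0 to 48.7) and 35.5% (34.1 to 36.9) in wtPC12, and 54.6% (53.3 to 56.0) and 53.6% (52.1 to 55.0) in hrPC12. These intervals cover counting error only, and the wtPC12 libraries lay further apart than it allows. The share of Elavl4 was 6.90% and 8.91% in wtPC12 and 6.82% and 6.29% in hrPC12.

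The shares are of reads and not per length, so they serve to compare libraries and not genes. The log2 ratio of Elavl2 to Elavl3 reads was -1.11 and -2.07 in wtPC12 and 5.77 and 6.06 in hrPC12, a change of 7.51, or 182-fold. The normalized counts of the 4 genes summed to 3322 and 4683 in wtPC12 and to 4508 and 4776 in hrPC12, so the sum in hrPC12 replicate 1 lay within the range of wtPC12.

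**Figure D3:**
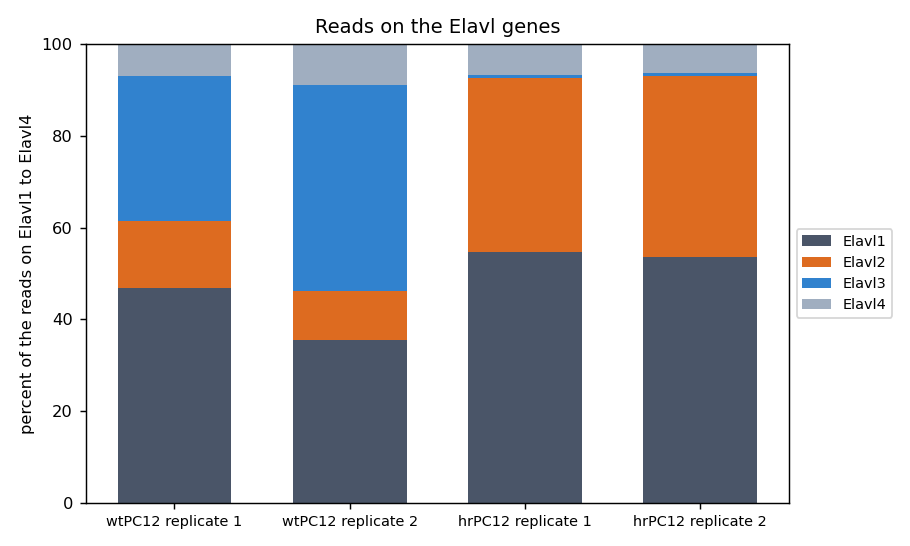
Share of the reads on the 4 Elavl genes, in percent, taken by each gene in each library, as stacked bars from 0. Elavl3 takes 31.6% and 44.9% in wtPC12 and under 1% in both hrPC12 libraries, and Elavl2 takes 37.9% and 39.6% in hrPC12.

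Short sequences with a match are shown so that the position of each can be read. In windows from 250 bases before to 50 after the RefSeq start, all 10 members were covered. The left part of RE1, TTCAGCACC, was in 0.356% of 33469 RefSeq windows and the right part, GGACAGC, in 6.59%. Of the members, only Elavl4 held the left part, on the opposite strand and 144 bases before the start, and only Ptbp2 held the right part, on the opposite strand and 247 bases before the start. Rest held the right part on its own strand, 102 bases before the start. The joined element, made of the left part without its first letter, 2 bases of any kind and the right part, overlaps both parts by design and was in 0.0239% of the windows and in no member. The regions are chr5:130367789-130367818 for Elavl4, chr2:210558498-210558527 for Ptbp2 and chr14:31233535-31233564 for Rest, all in GRCr8 and on the minus strand. Sequences run in the direction of the gene and capitals mark the match, so a match on the opposite strand reads GGTGCTGAA or GCTGTCC.
Elavl4: ggcagctcctgGGTGCTGAAcgttgagatg
Ptbp2: cagGCTGTCCcactcataccgcccacagaa
Rest: gccggcgggctGGACAGCgatttctgcggc

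Elavl4 and Ptbp2, the members with a match, did not pass the test, and a match in letters is not a bound site. The E-box CAGCTG, which neural and muscle basic helix-loop-helix factors are known to bind, reads alike on both strands and overlaps neither part of RE1 in these windows. It was in 15.1% of all windows and in those of A2bp1, Nova1 and Elavl2, at 8, 155 and 33 bases before the start. Their regions are chr10:8999392-8999421, chr6:69632574-69632603 and chr5:111202302-111202331 in GRCr8 on the minus strand. For A2bp1, Ptbp2, Elavl2, Elavl3 and Elavl4 the RefSeq start of the table lies inside the gene, so these windows cover 1 of several possible starts.
A2bp1: cattttggtagctccgaccctgCAGCTGcc
Nova1: acactgcactgCAGCTGctccgcgccctgc
Elavl2: ctctggcagagCAGCTGcacacacggcagt

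The 2 wtPC12 libraries differed for the same members on which several intervals were wide. Replicate 2 was above replicate 1 by 2.16-fold for Srrm4, 2.07-fold for Nova1, 2.01-fold for Elavl3, 1.83-fold for Nova2 and 1.82-fold for Elavl4. These 5 members lay between the 87.4 and the 91.3 percentile of all tested genes for this ratio. Ptbp1, Elavl1 and Elavl2 were at 0.900-, 1.07- and 1.03-fold, Ptbp2 was at 0.736-fold, and A2bp1 was at 0.472-fold from its 15 and 8 reads.

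Among all genes, the wtPC12 ratio went with the length of the gene. The median log2 of replicate 2 over 1 was -0.34 in the fifth of genes with the shortest GRCr8 span and 0.41 in that with the longest, over the 10427 tested genes that could be placed. The same medians ran from 0.10 to -0.04 for hrPC12 replicate 2 over 1. The part of this in the members' values was not tested. In hrPC12, replicate 1 stood above replicate 2 by a log2 value past 0.6 for 22.6% of the tested genes. Over 7 placed genes in a row centred on each tested member, the member included, the median of this log2 value was between -0.13 and 0.12.

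**Figure D4:**
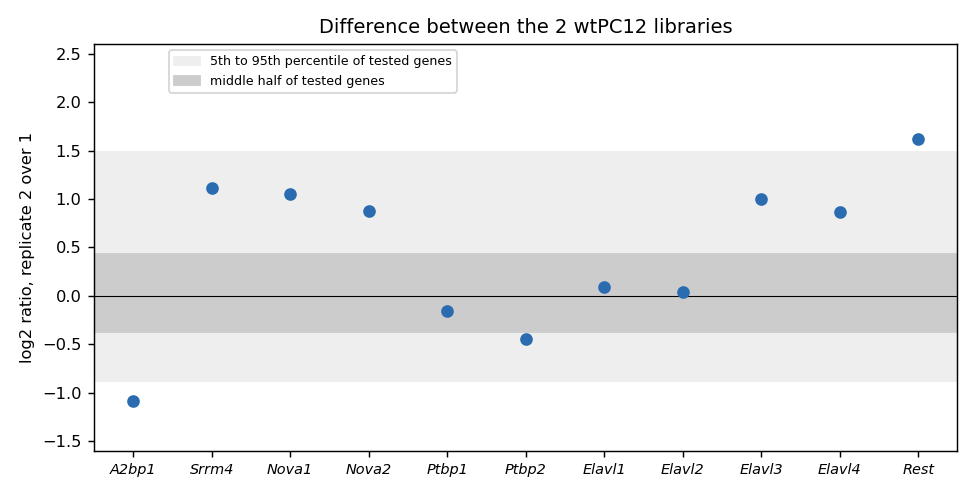
Ratio of wtPC12 replicate 2 over replicate 1 for each member and for Rest, on a log2 axis, beside the spread of all tested genes. Srrm4, Nova1, Nova2, Elavl3 and Elavl4 stand at 1.82- to 2.16-fold, and Ptbp1, Elavl1 and Elavl2 near 1.

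Other genes of RNA regulation gave the surroundings of the members, in 6 lists of 139 genes of which 98 could be tested. Tissue-regulated splicing factors other than the members had 4 higher and 5 lower of 18 tested, or 50% beside 32.4% of all tested genes, with a median log2 FC of 0.03 beside 0.06. SR proteins and relatives, which define exons in most cells, had 2 higher and 0 lower of 10. The hnRNP proteins had 5 higher and 2 lower of 20. Core spliceosome subunits had 1 higher and 1 lower of 25, or 8% beside the same 32.4%. Other regulators of mRNA stability and translation had 2 higher and 0 lower of 15, and mRNAs known to be bound by Elavl proteins 1 higher and 3 lower of 10. Medians of all 6 lists were between -0.12 and 0.10.

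**Figure D5:**
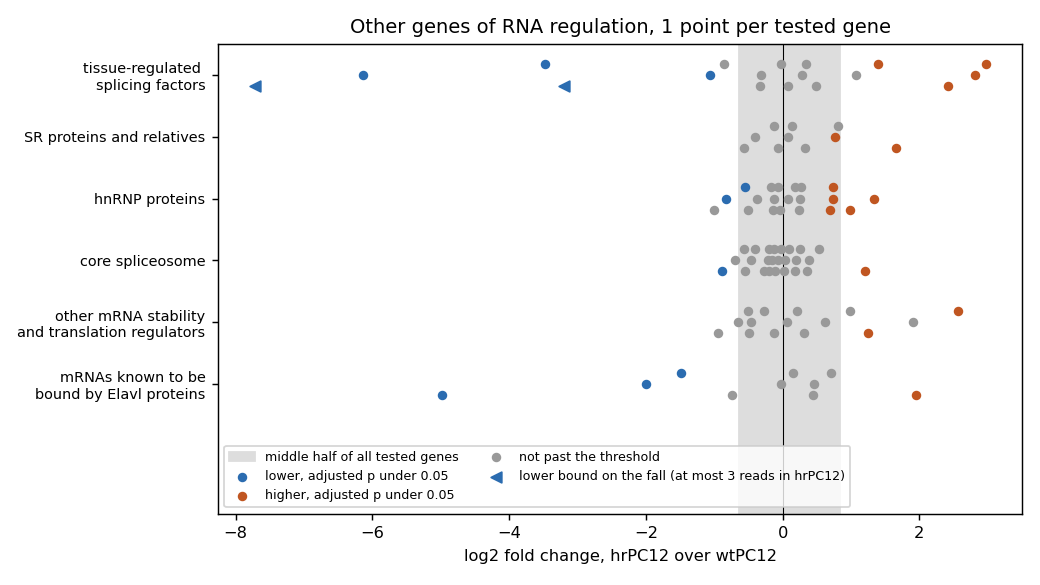
Log2 FC of hrPC12 over wtPC12 for each tested gene of the 6 lists, coloured by the test, with triangles for genes of at most 3 reads in hrPC12, drawn at their bound. Tissue-regulated splicing factors run from a bound of at least 211-fold lower to a log2 FC of 2.97. Core spliceosome genes stay between -0.88 and 1.20.

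Among the tissue-regulated factors, Brunol6 (Celf6), of the Celf family of splicing and translation regulators, had 563 and 614 normalized counts in wtPC12 and 0.847 and 0 in hrPC12, from 1 and 0 reads. It was at least 211-fold lower. Its relatives went both ways, and they are named after their values were seen. Brunol5 (Celf5) had 900.4 and 1524 in wtPC12 and 106 and 112 in hrPC12, a log2 FC of -3.47 ± 0.35 (SE) with an adjusted p of 0.00261 by edgeR's test. Cugbp2 (Celf2) had 0 reads in both wtPC12 libraries and 433 and 224 normalized counts in hrPC12, at least 99.9-fold higher, and Cugbp1 (Celf1) did not pass the threshold with a log2 FC of 0.29, which became 0.80 with an adjusted p of 0.0302 without wtPC12 replicate 2.

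Qk, the quaking gene of glial and muscle splicing, had 180 and 482 normalized counts in wtPC12 and 3417 and 1789 in hrPC12. The clones did not overlap, although both pairs of replicates were apart, and the log2 FC was 2.97 ± 0.59 (SE) with an adjusted p of 0.0192 by edgeR's test. It was 2.39 when wtPC12 replicate 1 was left out and 3.85 when replicate 2 was, and the call held in both. Tia1, a splicing and stress granule protein, rose with a log2 FC of 1.39 and an adjusted p of 0.0270, which became 0.0556 without hrPC12 replicate 2. Srrm1, an SR-related coactivator of splicing, rose with 1.66 from 1196 and 1223 to 4935 and 2713 normalized counts, an adjusted p of 0.0179 with edgeR that became 0.0999 without wtPC12 replicate 2. Sfrs4, an SR protein, rose with 0.77, a call that was lost without either hrPC12 library.

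Of the hnRNP proteins Hnrnpu and Syncrip rose by 1.34 and 0.98 on the log2 scale, with adjusted p of 0.0340 and 0.0351 by edgeR's test. Hnrnpu kept its call only without hrPC12 replicate 2, and Syncrip only without wtPC12 replicate 2, among the 4 fits that leave out a library. Without the others the adjusted p was between 0.0941 and 0.139 for Hnrnpu and between 0.0568 and 0.0676 for Syncrip. Pcbp4 fell by 0.83 with an adjusted p of 0.0212, a call lost without either hrPC12 library, at 0.192 and 0.0758. Hnrpd fell by 0.55 with an adjusted p of 0.0498, just under the threshold, and it was called in 2 of the 10 alternative settings and in none that left out a library.

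In the core spliceosome Snrpg rose by 1.20 and Prpf6 fell by 0.88 on the log2 scale, with adjusted p of 0.0373 and 0.0179 by edgeR's test. The call of Snrpg was lost without wtPC12 replicate 2 and without hrPC12 replicate 1, and that of Prpf6 without either hrPC12 library. Msi2, which binds the untranslated ends of mRNAs, rose by 2.57 with an adjusted p of 0.0294, and by 1.98 without wtPC12 replicate 1 and 3.47 without replicate 2. Pum2, a repressor of translation, rose by 1.25 with an adjusted p of 0.0417, and kept its call among the fits that leave out a library only without hrPC12 replicate 2. The others gave an adjusted p of 0.112, 0.144 and 0.175.

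For Qk, Srrm1, Hnrnpu, Msi2 and Pum2, hrPC12 replicate 1 was above replicate 2 by a log2 value past 0.8. Without hrPC12 replicate 1, Qk, Srrm1 and Msi2 kept their calls with log2 FC of 2.43, 1.17 and 2.06, while Hnrnpu and Pum2 lost theirs with 0.82 and 0.73 and adjusted p of 0.132 and 0.175 by edgeR's test. Of the 26 calls in the 6 lists, 14 were lost when hrPC12 replicate 1 was left out and 9 when replicate 2 was, and for wtPC12 the losses were 7 and 9.

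Of the mRNAs that Elavl proteins are known to bind, Mapt, which codes for the microtubule protein tau, had the lowest log2 FC among those tested. It had 5367 and 6877 normalized counts in wtPC12 and 190.5 and 195 in hrPC12, a log2 FC of -4.99 ± 0.23 (SE) with an adjusted p of 0.000376 by edgeR's test. Fos, an early response factor, fell by 2.00 on the log2 scale with an adjusted p of 0.0271 by edgeR's test, and its call was lost without wtPC12 replicate 2 (adjusted p 0.0926) and without hrPC12 replicate 1 (0.0684). Vegfa, a growth factor of vessels that is named after its values were seen, fell by 1.49 with an adjusted p of 0.00406 and was called in all 10 alternative settings. Cdkn1b, an inhibitor of the cell cycle, rose from 751 and 696 to 2745 and 2856, a log2 FC of 1.95 ± 0.18 (SE) with an adjusted p of 0.00200. Gap43, named above as a target of Elavl4, was at -0.75 and did not pass the threshold, with an adjusted p of 0.194. Genes of this list moved in both directions beside the rise of Elavl1 and Elavl2 and the fall of Elavl3.

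Markers of the line's own chromaffin type and of other cell types moved with the clones as well. Summed chromaffin markers, 12 of 14 found, were between 892741 and 1053166 normalized counts in wtPC12 and between 47669 and 51691 in hrPC12. Of the 11 tested, 7 fell, among them Th and Dbh of catecholamine synthesis. The other 4, Ddc, Slc18a2, Gata3 and Hand2, did not pass the threshold. The wtPC12 sum was mostly Chgb, at 657356 normalized counts on average against 554 in hrPC12. In hrPC12 the largest part was Ddc, at 27138 against 22518 in wtPC12. Summed mesenchymal markers, 10 of 10 found, were between 16321 and 18105 in wtPC12 and between 95443 and 100194 in hrPC12, with 6 of 9 tested higher and 2 lower. The wtPC12 sum was nearly all Thy1, at 17058 normalized counts on average against 8603 in hrPC12, and the hrPC12 sum mostly Col3a1, a fibrillar collagen, at 85972 against 94.5 in wtPC12, so the rise of the sum was that of Col3a1 while Thy1 fell. Leukocyte markers summed to 46.4 to 51.2 in wtPC12 and to 433 to 509 in hrPC12, with at most 1 read of the leukocyte antigen Ptprc in a library, and glial markers to 162 to 166 and 237 to 257, with Sox10 at 0 in both clones. In these bulk samples, fewer cells of a type and less RNA per cell cannot be told apart. The part of these shifts in the values of the members was not tested.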

How the data were processed

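The authors sequenced 2 libraries of each clone as paired-end reads, aligned them to the rat build RGSC3.4 (rn4) and deposited raw read counts per gene, 1 table per library. The submitters' processing notes name TopHat2 2.0.4, HTSeq 0.5.3 and DESeq 1.9.12. A deposited table of the authors' clone means, fold changes and p-values was not used. Whether counting used the strand is not given in the sources used here.

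From the counts, in R 4.3.3 with edgeR 4.0.16 and limma 3.58.1, the study's filter (reads in each clone, and normalized counts averaging 5 or more) left 13726 of 18416 genes with reads. TMM factors were between 0.942 and 1.05. The test was edgeR's quasi-likelihood test (prior count 0.125) after Benjamini-Hochberg, at an adjusted p under 0.05. Reads outside genes (49.9% to 55.9%) were left out of library sizes.

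Members and lists were chosen with earlier results of these data known. Named genes are the members, Rest, paralogs of members and, in each list, up to 2 genes at either end among those with an adjusted p under 0.05, clones that do not overlap and a mean of 100 or more in the higher one. Vegfa, Gap43, Brunol5, Cugbp1, Cugbp2 and the markers are named outside this rule. Sequences are from RefSeq (GRCr8), and A2bp1 was matched as Rbfox1. Alternatives were RLE factors, library totals, other filters, DESeq2 1.42.0, the legacy option off, a prior count of 2, an adjusted p under 0.01, and leaving out each library.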

Additional observations from a re-analysis of the deposited data

How the results depend on the processing

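With an adjusted p under 0.01, edgeR called 980 genes lower and 816 higher, in place of 2234 and 2215, of the members 1 lower and 1 higher, and of the other genes of RNA regulation 5 lower and 2 higher. With RLE factors, and with every gene with at least 1 read tested, 1 member was called higher in place of 2, since Elavl1 was lost. Leaving out 1 library, which leaves a clone with 1 library that is assumed to vary like the other clone, gave 1433 to 2374 genes lower and 1551 to 2122 higher, 2 members lower throughout and 1 to 2 higher, and 6 to 12 of the other genes of RNA regulation lower and 7 to 15 higher. The lowest counts came without hrPC12 replicate 1. The difference in the Elavl1 share of Elavl reads ran from 7.21 to 18.6 percentage points, and that in the log2 ratio of Ptbp2 to Ptbp1 from -0.59 to -0.20. Leaving out a wtPC12 library moved the log2 FC from -0.84 to 0.24 for Nova1, from -0.49 to 0.41 for Elavl4, from -0.48 to 0.93 for Rbm9 and from -0.12 to 0.80 for Cugbp1, the first value without replicate 1 and the second without replicate 2. Of these, the values of Rbm9 and Cugbp1 without replicate 2 passed the threshold. The cause was not tested. Of 333 values for single genes under the alternatives, 290 kept their direction and, where tested, their side of the threshold. Of the rest, 34 lost the call, 4 gained it, 4 reversed in direction, and 1, of A2bp1 without wtPC12 replicate 1, moved in size. These counts include the untested values of A2bp1 and the bounds of Srrm4. They leave out the prior count, which changes the log2 FC and not the test. Brunol6 could not be fitted without hrPC12 replicate 1. Reads per kilobase were not run because no transcript lengths were used here. No paired analysis was possible because the labels do not give the libraries of the clones shared numbers. Depth limits the values of A2bp1 in wtPC12 and of Srrm4, Elavl3 and Hrnbp3 in hrPC12.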
